A study of Mus musculus with 4 samples.

Results

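The mitochondrial genome of the mouse carries 37 genes, and all of them were present among the 53845 genes of the count table from mouse intestinal crypts. Members were chosen by name, as every gene whose GENCODE M21 symbol begins with mt-. They comprised 13 protein-coding genes, 2 ribosomal RNA (rRNA) genes and 22 transfer RNA (tRNA) genes, each a single exon without introns on chrM of GRCm38. Of these 37 genes, 28 lie on the plus strand and 9 on the minus strand, the latter being mt-Nd6 and 8 tRNA genes.

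RNA was sequenced from crypts of 2 wild-type (WT) and 2 Vil-CREPTKO mice, all on the C57BL/6 background. Vil-CREPTKO mice carry floxed alleles of CREPT (gene symbol Rprd1b) and a Cre recombinase driven by the villin promoter, so the gene is lost from intestinal epithelium while other cells of a crypt preparation keep it. The mice of the study, of both sexes, were 6 to 8 weeks old, and the labels gave neither age nor sex for each library, nor which Cre or floxed alleles the WT mice carried. Each library was from a separate mouse. The question put to the mitochondrial genes was how much of each library they took up and whether any of them differed between the genotypes.

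In the libraries, total counts ran from 47241049 to 49369315. Rprd1b itself was counted 3087 and 3030 times in the WT libraries and 1142 and 1424 times in the Vil-CREPTKO libraries, 45.3% of the WT level. Its log2 fold change was -1.14 (SE 0.12, adjusted p = 0.00410, edgeR quasi-likelihood test). WT replicate 2 stood apart in the sex of the mouse, with 42463 Xist counts against 13 to 26 in the other 3 libraries and 0 counts of the Y-linked Ddx3y. Enterocyte markers, 10 genes summed, took 18783 to 27501 counts per 1000000 (CPM) of the unscaled library total in a library.

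Mitochondrial DNA is transcribed by its own polymerase into long transcripts of both strands, which are then cleaved, largely at the tRNAs that punctuate the genome, into mRNAs, rRNAs and tRNAs. The mRNAs encode core subunits of respiratory complexes I, III and IV and of the ATP synthase, complex V, while all other subunits come from the nuclear genome. Because genes of 1 strand share a transcript, their steady-state levels depend on processing and stability as well as on transcription. Copies of mitochondrial sequence also lie in the nuclear chromosomes, where they are annotated as pseudogenes.

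Some of these nuclear copies are so alike that a short read cannot be assigned by its bases, and the pairs that bear on the results are shown here from the GENCODE M21 transcripts (GRCm38), 5′ to 3′, with capitals at the bases that differ within a pair. The opening 80 bases of mt-Nd3 (chrM:9459-9538, plus strand) and of its copy Gm28438 (chr1:24613040-24613119, minus strand) differ by T3C, counted from 1 at the start of the mt-Nd3 transcript. The same stretch of mt-Atp6 (chrM:7927-8006, plus strand) and of its copy Gm10925 (chr1:24614572-24614651, minus strand) has no difference. In contrast, bases 561 to 640 of mt-Cytb (chrM:14705-14784, plus strand) and of Gm11410 (chr4:80004548-80004627, plus strand) differ at 7 positions.
mt-Nd3: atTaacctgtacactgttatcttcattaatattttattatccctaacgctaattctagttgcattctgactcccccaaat
Gm28438: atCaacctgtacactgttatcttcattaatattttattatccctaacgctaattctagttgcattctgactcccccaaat
mt-Atp6: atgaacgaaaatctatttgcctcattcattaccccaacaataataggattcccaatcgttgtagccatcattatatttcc
Gm10925: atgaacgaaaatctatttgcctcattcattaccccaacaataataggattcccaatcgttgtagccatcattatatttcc
mt-Cytb: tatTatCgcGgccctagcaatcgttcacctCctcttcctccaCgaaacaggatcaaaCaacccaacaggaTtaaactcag
Gm11410: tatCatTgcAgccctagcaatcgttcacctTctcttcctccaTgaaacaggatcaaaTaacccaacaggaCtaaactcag

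In all, 16 genes outside the mitochondrial genome matched a member over at least 100 bases at 90% identity or more. At 99% or more there were 7, and all 7 lay side by side on chromosome 1, at chr1:24611535-24616197 on the minus strand. They run parallel to chrM:6390-11042, from within mt-Co1 to within mt-Nd4. This stretch of 4663 bases spans 11 whole members, 6 mRNAs and 5 tRNAs, and parts of mt-Co1 and mt-Nd4. Near-identical copies covered all but the last 1 to 3 bases of mt-Co2, mt-Atp6, mt-Co3, mt-Nd3 and mt-Nd4l, 63.6% of mt-Nd4 and 31.3% of mt-Co1. No annotated copy at that identity matched any other mRNA or rRNA, and the tRNAs, shorter than the 100-base minimum, could not be searched this way.

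Mitochondrial genes took a larger share of the counts in both Vil-CREPTKO libraries than in either WT library. The share was 6.93% and 6.75% in WT (6.84% ± 0.125, SD, n = 2). In Vil-CREPTKO it was 10.2% and 7.62% (8.92% ± 1.84, SD, n = 2). The difference of 2.08 percentage points had an exact permutation p of 0.333 (two-sided), which is the smallest that 2 against 2 libraries allow. Without Vil-CREPTKO replicate 1 the difference was 0.778 percentage points, and without Vil-CREPTKO replicate 2 it was 3.38. Set against the counts of nuclear protein-coding genes alone, there were 7.65 and 7.41 mitochondrial counts per 100 in WT libraries and 11.7 and 8.44 in Vil-CREPTKO. In bulk crypts, a change in the number of mitochondria-rich cells and a change in the mitochondrial RNA of each cell cannot be told apart.

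**Figure D1:**
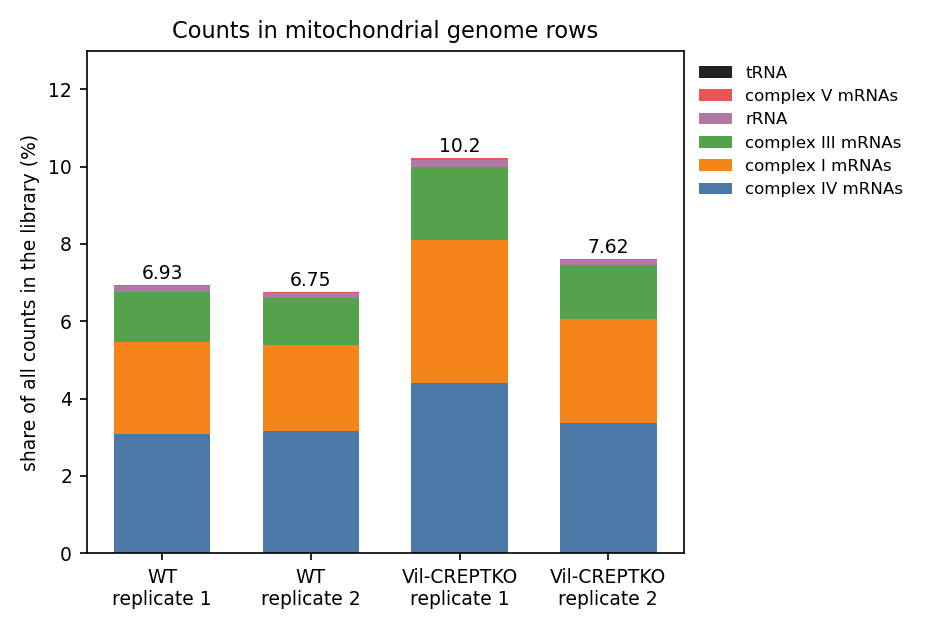
Share of all counts of a library (y axis, percent) that fell in mitochondrial genes, 1 bar per library, stacked by respiratory complex and RNA class. The bars reach 6.93% and 6.75% in WT libraries and 10.2% and 7.62% in Vil-CREPTKO, and the mRNAs of complexes I, III and IV make up nearly the whole height of each.

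Nearly all of these counts were mRNA. The 2 rRNAs held 0.135% to 0.206% of a library and the tRNAs 0.00308% to 0.00979%. Of the 22 tRNA genes, 21 were at 0 counts in all 4 libraries, where a count of 0 allows up to 3 counts, or 0.0608 to 0.0635 CPM. That limit covers counting error only, and whether the counting step could assign reads to these genes, 59 to 75 bases long, was not given in the sources used here. The 16 members with counts all passed the low-count filter, which left 17504 genes for testing.

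Levels differed by more than 3 orders of magnitude between members even per length. On the scale of CPM scaled between libraries by TMM and divided by kb of transcript, averaged over the 4 libraries, mt-Co1 was at 22614, mt-Cytb at 12750 and mt-Nd1 at 11381 CPM per kb. Then followed mt-Nd2 at 5069, mt-Nd4 at 4231, mt-Nd5 at 2502 and mt-Nd6 at 2248 CPM per kb. The rRNAs mt-Rnr1 and mt-Rnr2, RNAs of the small and the large mitochondrial ribosomal subunit, were at 756 and 581 CPM per kb, below these 7 mRNAs in every library. The methods of the study do not say how RNA was selected before sequencing. The order of rRNA and mRNA thus describes the libraries and not the RNA of crypts.

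Position along the genome went with level. The 5 mRNAs that have a near-identical copy over nearly their whole length lay at 85.5 to 403 CPM per kb, whereas the 5 mRNAs other than mt-Atp8 with no such copy lay at 2248 to 12750 CPM per kb. mt-Atp8, the shortest protein-coding gene at 204 bases, sat inside the same stretch at 12.5 CPM per kb. Each protein-coding gene is listed here as its own mRNA, also where genes overlap, as mt-Atp8 with mt-Atp6 and mt-Nd4l with mt-Nd4. Levels and changes of such neighbours are those of counts per gene and need not be those of separate RNA molecules. For mt-Co1 and mt-Nd4, which are copied in part, dividing all counts by the length without a copy gave 32898 and 11614 CPM per kb, which would be the level of that sequence only if no read came from the copied part. How the counting step treated reads that match several transcripts was not given in the sources used here, and its part in the low levels was not tested.

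**Figure D2:**
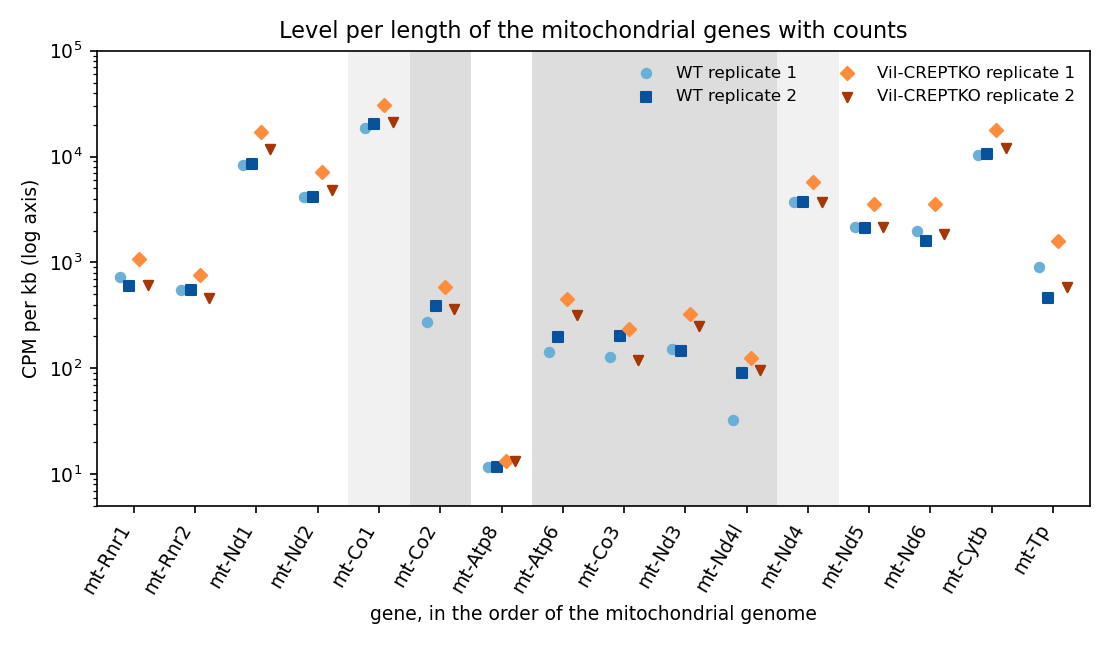
Level of each mitochondrial gene with counts, in CPM per kb on a log axis, in the order of the mitochondrial genome, 1 point per library. Dark grey marks genes copied almost whole on chromosome 1 at 99% identity or more and light grey those copied in part; the dark grey genes average 85.5 to 403 CPM per kb while mt-Co1, beside them, averages 22614.

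The nuclear copies took counts of their own. Gm10925, the copy of mt-Atp6, was counted 6949 and 9039 times in WT libraries and 11091 and 6001 times in Vil-CREPTKO. This was 58.4% and 57.6% of the counts of mt-Atp6 and Gm10925 together in WT, and 45.6% and 35.8% in Vil-CREPTKO. The split between mt-Atp6 and its copy thus did not overlap between the genotypes, with the share of the copy smaller in Vil-CREPTKO. Gm28661, the copy of mt-Co2, held 33.1% and 27.9% of its pair in WT and 31.8% and 29.9% in Vil-CREPTKO. Gm28437, the copy of mt-Co3, held 42.5% and 38.2% in WT libraries and 44.1% and 47.6% in Vil-CREPTKO. This split did not overlap either, but with the share of the copy larger in Vil-CREPTKO. The splits of mt-Co2, mt-Nd3 and mt-Nd4l with their copies overlapped, and none of these splits was tested. For the genes copied in part the copies were minor, with Gm29216 at 0.171% to 0.213% of its sum with mt-Co1 and Gm28439 at 0.415% to 0.565% of its sum with mt-Nd4. Of copies that diverged further, Gm13340 on chromosome 2, 97.6% identical to mt-Co1 over its whole length, had 711 to 1174 counts, and Gm11410, 92.9% identical to mt-Cytb, had 0 in every library.

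Across all genes, 0.423% of the 17504 tested were higher in Vil-CREPTKO at an adjusted p under 0.05, and 2.29% were lower. By the rule the study used, which adds an absolute log2 fold change over 1, 1.64% were called. Among the 16 measured members 2 rose, mt-Nd3 and mt-Atp6, 0 fell, and only mt-Atp6 passed the added fold threshold (edgeR quasi-likelihood test, Benjamini-Hochberg over all genes tested). Both are among the 5 mRNAs copied almost whole on chromosome 1, and 0 of the 8 other mRNAs passed in edgeR. At an unadjusted p under 0.05, 3 of the 16 members were higher and 0 lower, against 4.49% and 9.76% of all genes tested. DESeq2 likewise gave 3 higher, with mt-Nd1 as the addition, and 0 lower, against 1.04% and 3.74% of all genes.

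The log2 fold change was above 0 for all 16, between 0.10 and 1.18, whereas 49.1% of all genes tested were above 0. When libraries were scaled by their totals alone, mt-Co3 turned to -0.01 and the other 15 stayed above 0. The median log2 fold change was 0.52 for the 16 members and -0.01 for all genes. In 9 of the 16 (56.2%) both Vil-CREPTKO libraries were above both WT libraries, against 21.0% of all genes. Members come from the same 2 transcripts and the same libraries, so they are not independent of each other.

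The level in Vil-CREPTKO replicate 1 carried much of this. It was the highest of the 4 libraries for 16 of 16 members, with a median log2 difference from the WT mean of 0.77, while that of Vil-CREPTKO replicate 2 was 0.15. In replicate 2 of Vil-CREPTKO, 7 members were below the higher WT library, namely both rRNAs, mt-Co2, mt-Co3, mt-Nd4, mt-Nd6 and mt-Tp. Without Vil-CREPTKO replicate 1 the median fell to 0.14 and 11 of 16 members stayed above 0, while the number past an adjusted p of 0.05 was still 2.

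**Figure D3:**
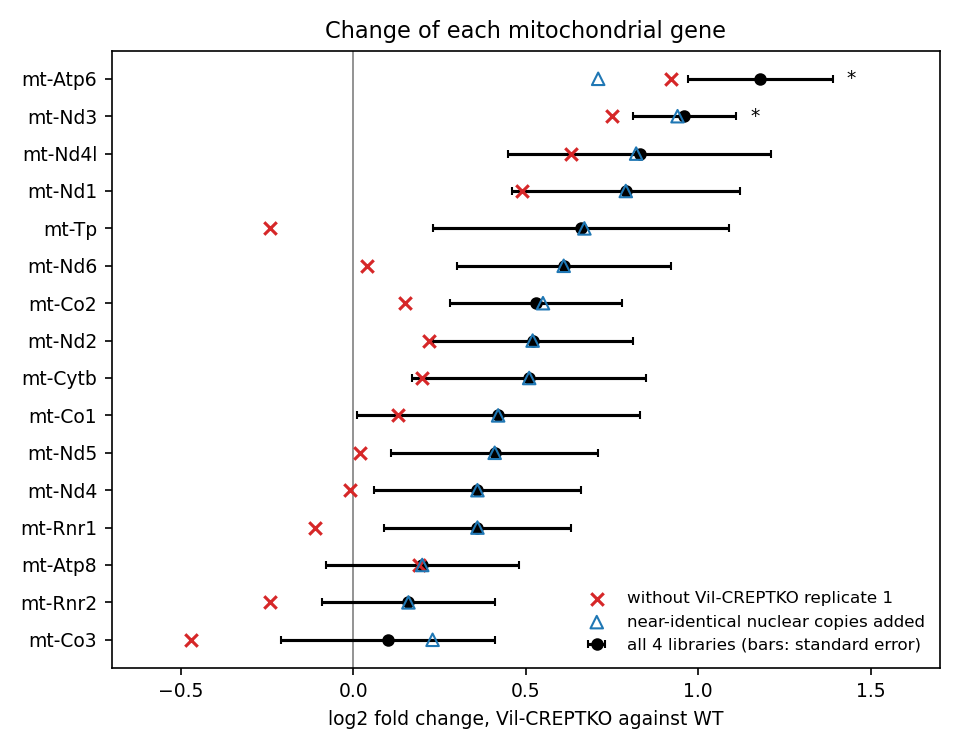
Log2 fold change of each measured mitochondrial gene, Vil-CREPTKO against WT (x axis), with its standard error from all 4 libraries (black), without Vil-CREPTKO replicate 1 (red crosses) and after adding counts of near-identical nuclear copies (blue triangles). Stars mark the 2 genes at an adjusted p under 0.05 with all 4 libraries; without Vil-CREPTKO replicate 1, 5 genes lie below 0, and with copies added mt-Atp6 moves from 1.18 to 0.71.

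Complex I, NADH dehydrogenase, is where electrons enter the chain from NADH, and 7 of its core subunits are mitochondrial. Their median log2 fold change was 0.61, and 5 of the 7 did not overlap between the groups, with Vil-CREPTKO higher as in 21.0% of all genes. mt-Nd3 rose from 53.0 and 50.5 CPM in WT crypts to 114 and 87.2 CPM in Vil-CREPTKO crypts. The change was 0.96 on the log2 scale (SE 0.15, adjusted p = 0.0129), or 1.94-fold. With the counts of Gm28438 added, 3952 and 3170 in WT libraries and 6748 and 5763 in Vil-CREPTKO, the log2 fold change was 0.94 (SE 0.17, adjusted p = 0.0228). The summed level was 222 and 185 CPM per kb in WT libraries and 446 and 337 in Vil-CREPTKO. The 5 mRNAs other than mt-Atp8 with no such copy averaged 2248 to 12750 CPM per kb. The sum cannot hold reads that the counting step may have left out of both genes. With a library left out, the log2 fold change of mt-Nd3 without its copy was lowest at 0.75, without Vil-CREPTKO replicate 1.

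mt-Nd1 and mt-Nd2 form part of the membrane arm of complex I and are separated on the genome only by tRNA genes. For mt-Nd1 the libraries gave 7898 and 8099 CPM in WT crypts against 16335 and 11235 CPM in Vil-CREPTKO crypts, a log2 fold change of 0.79 (SE 0.33, adjusted p = 0.316). The groups did not overlap, but the difference passed only in 2 alternatives, DESeq2 (adjusted p = 0.00154) and scaling by library totals (adjusted p = 0.0467). For mt-Nd2 they gave 4287 and 4352 CPM in WT crypts against 7382 and 5026 CPM in Vil-CREPTKO crypts, a log2 fold change of 0.52 (SE 0.29, adjusted p = 0.476).

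The other 4 subunits of complex I did not pass the test either. mt-Nd4, at 5139 and 5082 CPM in WT crypts and 7997 and 5102 CPM in Vil-CREPTKO crypts, overlapped between the groups, with a log2 fold change of 0.36 (SE 0.30, adjusted p = 0.672). mt-Nd5 was at 3978 and 3847 CPM in WT crypts and 6443 and 3984 CPM in Vil-CREPTKO crypts (log2 fold change 0.41, SE 0.30, adjusted p = 0.611). In both of these genes only Vil-CREPTKO replicate 1 stood clear of WT, and mt-Nd5 counts among those without overlap by 3984 against 3978 CPM. mt-Nd4l, whose reading frame overlaps the start of mt-Nd4, was the least even in WT, at 9.66 and 26.8 CPM, and stood at 36.7 and 28.4 CPM in Vil-CREPTKO crypts (log2 fold change 0.83, SE 0.38, adjusted p = 0.374). Its value was 1.75 without WT replicate 2 and then passed the test. mt-Nd6, the only mRNA of the minus strand, was at 1027 and 823 CPM in WT crypts and 1862 and 956 CPM in Vil-CREPTKO crypts (log2 fold change 0.61, SE 0.31, adjusted p = 0.428).

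Complex III contributes a single mitochondrial gene, mt-Cytb, the cytochrome b that passes electrons from ubiquinol. It was measured at 11925 and 12156 CPM in WT crypts and 20417 and 13845 CPM in Vil-CREPTKO crypts. Without overlap between the groups, its log2 fold change of 0.51 (SE 0.34, adjusted p = 0.580) did not pass the test.

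Complex IV, cytochrome c oxidase, has 3 mitochondrial subunits that form its catalytic core, and none passed. mt-Co1, the most abundant member, was at 28472 and 31259 CPM in WT crypts and 47326 and 32694 CPM in Vil-CREPTKO crypts (log2 fold change 0.42, SE 0.41, adjusted p = 0.715). The groups did not overlap for mt-Co1, but Vil-CREPTKO replicate 2 lay close to WT replicate 2. mt-Co2 was at 189 and 263 CPM in WT crypts and 400 and 251 CPM in Vil-CREPTKO crypts (log2 fold change 0.53, SE 0.25, adjusted p = 0.384), and mt-Co3 at 101 and 160 CPM in WT crypts and 185 and 94.0 CPM in Vil-CREPTKO crypts (log2 fold change 0.10, SE 0.31, adjusted p = 0.931). Both overlapped between the groups, and the sums with their copies gave log2 fold changes of 0.55 and 0.23.

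Complex V, the ATP synthase, has mt-Atp6, a subunit of its proton channel, and mt-Atp8, a small membrane subunit. mt-Atp6 rose from 96.8 and 135 CPM in WT crypts to 305 and 219 CPM in Vil-CREPTKO crypts. This was the largest change among the members, 1.18 on the log2 scale (SE 0.21, adjusted p = 0.0257) or 2.26-fold, and the groups did not overlap. Its copy Gm10925 did not pass the test, at 136 and 184 CPM in WT crypts and 255 and 122 CPM in Vil-CREPTKO crypts (log2 fold change 0.24, SE 0.30, adjusted p = 0.797). Summed over gene and copy, the counts were 11890 and 15685 in WT libraries and 24326 and 16774 in Vil-CREPTKO, with a log2 fold change of 0.71 (SE 0.25, adjusted p = 0.230). The call of mt-Atp6 thus held with reads divided between gene and copy as in the deposited counts, and was lost in their sum.

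mt-Atp8 and mt-Atp6 share 43 bases of the plus strand, and the stretch is shown because reads within it belong to both genes. The start of mt-Atp6 and the last bases of mt-Atp8 are in capitals (chrM:7927-7969, GENCODE M21, GRCm38).
mt-Atp8 and mt-Atp6 overlap: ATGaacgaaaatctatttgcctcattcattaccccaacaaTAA
Levels of mt-Atp8 were 2.39 and 2.36 CPM in WT crypts and 2.74 and 2.71 CPM in Vil-CREPTKO crypts, a log2 fold change of 0.20 (SE 0.28, adjusted p = 0.824). The groups did not overlap for mt-Atp8, which had the lowest level of the 16 measured members.

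The rRNAs moved least as a class, with a median log2 fold change of 0.26. mt-Rnr1 was at 688 and 577 CPM in WT crypts and 1034 and 587 CPM in Vil-CREPTKO crypts (log2 fold change 0.36, SE 0.27, adjusted p = 0.624). mt-Rnr2 was at 869 and 865 CPM in WT crypts and 1204 and 736 CPM in Vil-CREPTKO crypts (log2 fold change 0.16, SE 0.25, adjusted p = 0.839). For both, Vil-CREPTKO replicate 1 was the highest library, and Vil-CREPTKO replicate 2 lay among the WT libraries or below them.

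The only tRNA with counts was mt-Tp, the proline tRNA at chrM:15356-15422, which is encoded on the minus strand beside the control region of the genome. Its gene sequence is shown as the single tRNA measured, with no base in capitals.
mt-Tp: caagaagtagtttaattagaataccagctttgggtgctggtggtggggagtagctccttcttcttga
mt-Tp was at 60.7 and 30.9 CPM in WT crypts and 106 and 38.9 CPM in Vil-CREPTKO crypts (log2 fold change 0.66, SE 0.43, adjusted p = 0.559). Replicate 1 was higher than replicate 2 in both groups, and the groups overlapped.

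Shares within the mitochondrial counts do not depend on how libraries are scaled to each other. Complex I mRNAs made up 34.6% and 32.9% of mitochondrial counts in WT libraries and 36.1% and 35.3% in Vil-CREPTKO, and complex IV mRNAs 44.4% and 46.8% in WT libraries and 43.1% and 44.1% in Vil-CREPTKO. The groups did not overlap for either, with complex I higher by 1.98 and complex IV lower by a difference of -1.97 percentage points in Vil-CREPTKO. The difference of complex I rested on mt-Nd1. That of complex IV was nearly that of mt-Co1 alone, which held 42.6% to 46.2% of mitochondrial counts, so leaving mt-Co1 out leaves little of complex IV to compare. Shares of 1 whole also depend on each other, because a rise in one lowers the rest, so the changes of complex I and complex IV are not separate results. Without mt-Nd1, complex I made up 22.4% and 20.9% in WT libraries, against 21.4% and 20.3% in the knockouts, and without mt-Co1, complex IV made up 0.447% and 0.625%, against 0.526% and 0.461%, with overlap in each case. Without WT replicate 2 the differences were 1.15 for complex I and -0.776 for complex IV, and when WT replicate 1 was dropped that of complex IV was -3.17. mt-Cytb was even, at 17.9% to 18.5% in all 4 libraries. The rRNAs took 2.40% and 2.13% in WT libraries and 2.01% and 1.77% in Vil-CREPTKO, and complex V, mostly mt-Atp6, took 0.153% and 0.203% in WT libraries and 0.276% and 0.297% in Vil-CREPTKO. Each of the differences without overlap had an exact permutation p of 0.333, the smallest possible here.

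mt-Nd1 gave the tightest separation of the genotypes among these shares, at 12.2% and 12.0% in WT libraries and 14.7% and 15.0% in Vil-CREPTKO (12.1% ± 0.163 and 14.8% ± 0.217, SD, n = 2). It was singled out after its values were seen. Among the 5 mRNAs without a near-identical copy, leaving out mt-Atp8, all 10 ratios of counts per kb were computed, and 6 did not overlap between the groups. Of these 6 ratios, 3 include mt-Nd1 and 3 do not. The ratio of mt-Nd1 to mt-Cytb was 0.792 and 0.796 in WT libraries and 0.956 and 0.970 in Vil-CREPTKO. The ratio of mt-Nd1 to mt-Nd2 was 2.00 and 2.02 in WT libraries and 2.40 and 2.42 in Vil-CREPTKO.

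On the log2 scale these 2 ratios differed between the groups by 0.28 and 0.26. The libraries of a group were within 0.020 of each other in both, and Vil-CREPTKO replicate 2 stood as far from WT as Vil-CREPTKO replicate 1. The ratio of mt-Nd1 to mt-Nd5 differed by 0.39, with ranges of 0.085 within WT and 0.15 within Vil-CREPTKO, and that of mt-Nd1 to mt-Nd6 by 0.22 with overlap, its ranges being 0.36 and 0.42. The ratio of mt-Nd2 to mt-Cytb, also without overlap, differed by only 0.01, with a range within a group of at most 0.0063. Per length, mt-Rnr2, which is separated from mt-Nd1 by the tRNA gene mt-Tl1, stood to mt-Nd1 as 0.0665 and 0.0646 in WT libraries and as 0.0446 and 0.0396 in Vil-CREPTKO. With 2 libraries a group the exact permutation test cannot go below 0.333 for any ratio.

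**Figure D4:**
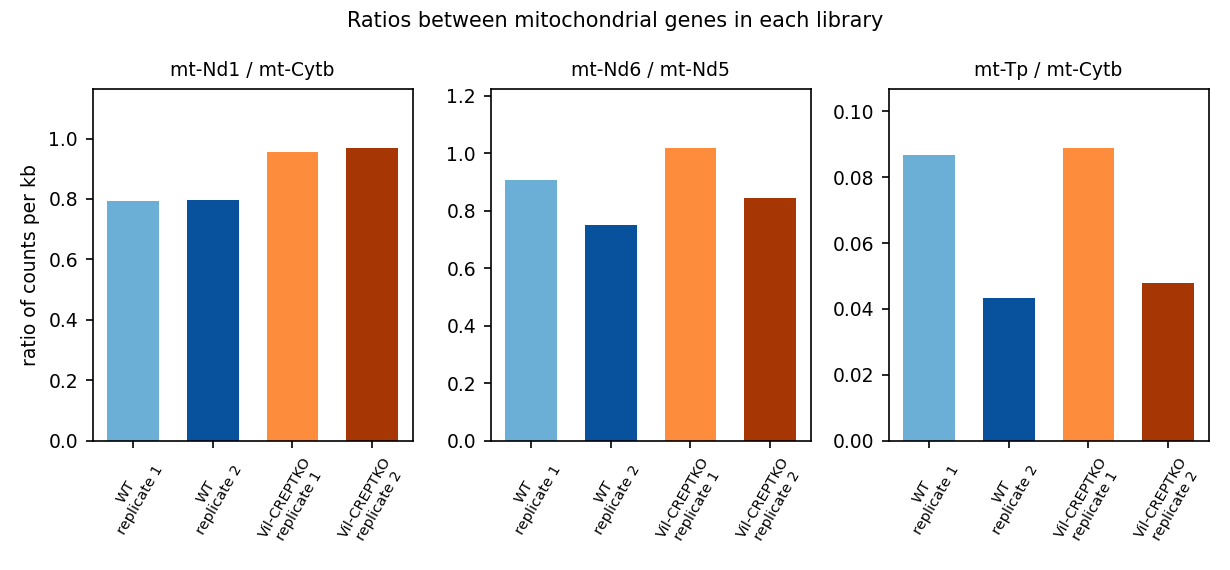
Ratios of counts per kb between mitochondrial genes, 1 bar per library, with mt-Nd1 over mt-Cytb (left), mt-Nd6 over mt-Nd5 (middle) and mt-Tp over mt-Cytb (right). The left ratio parts the genotypes, 0.792 and 0.796 against 0.956 and 0.970, while the right one is higher in replicate 1 of each group, 0.0869 and 0.0890 against 0.0434 and 0.0480.

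The mt-Tp to mt-Cytb and mt-Nd6 to mt-Nd5 ratios and the minus-strand share differed more between replicate numbers than between genotypes. All were also higher in Vil-CREPTKO within each number. The ratio of mt-Tp to mt-Cytb per length was 0.0869 in WT replicate 1 and 0.0890 in Vil-CREPTKO replicate 1, against 0.0434 and 0.0480 in the replicates numbered 2. The ratio of mt-Nd6 to mt-Nd5, a minus-strand mRNA and its plus-strand neighbour, was 0.908 and 0.752 in WT libraries and 1.02 and 0.843 in Vil-CREPTKO. Minus-strand members together held 1.68% and 1.26% of mitochondrial counts in WT libraries and 1.77% and 1.33% in Vil-CREPTKO. The level was higher in replicate 1 than in replicate 2 of each group in 8 members. These were both rRNAs, mt-Atp8, mt-Nd3, mt-Nd4, mt-Nd5, mt-Nd6 and mt-Tp. Vil-CREPTKO replicate 1 was the highest library for all 16 members, so this count depends on the WT libraries alone. For mt-Atp8 and mt-Nd3 the genotypes differed by more than the replicates did. The labels do not say what the replicate numbers share.

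Markers of cell types and stress and other RNA classes were measured beside the mitochondrial share. Vil-CREPTKO replicate 2, with the second highest share, was the lowest library for enterocyte and for stromal sums, per unscaled library total. For enterocyte genes this order depended on the measure. Their median log2 difference from the WT mean, on TMM-scaled CPM, was lowest in WT replicate 1. It was -0.19 there and -0.15 in Vil-CREPTKO replicate 2. Haemoglobin and other blood genes, 5 in the list, summed to 30.3 and 12.3 CPM of the unscaled library total in WT and 61.1 and 17.1 in Vil-CREPTKO. Stromal and smooth muscle genes, 10 in the list, summed to 18.5 and 16.8 in WT libraries and 27.2 and 11.7 in Vil-CREPTKO. Vil-CREPTKO replicate 1 was the highest library in both lists, as it was for the mitochondrial share, and for enterocyte markers at 27501 against 18783 to 23462 in the others. The small nuclear RNA gene Rn7sk had 50 and 42 counts in WT libraries and 288 and 99 in Vil-CREPTKO, while 7 of the 10 structured RNA genes listed were at 0 counts throughout. Dissociation and stress genes did not peak there, with 358 and 391 in WT libraries and 319 and 288 in Vil-CREPTKO, nor did Paneth cell markers, at 15748 and 21738 in WT libraries and 18975 and 21861 in Vil-CREPTKO. Immune cell markers, 10 in the list, had sums that were lower without overlap, at 976 and 715 in WT libraries against 628 and 582 in the knockouts. The sums of dissociation and stress genes were also lower without overlap, but only per unscaled library total. TMM factors, 1.07 for WT replicate 1 against 0.92 for Vil-CREPTKO replicate 1, reverse the order of these libraries, so TMM-scaled sums overlap. The median log2 difference of these genes from the WT mean, on TMM-scaled CPM, did not overlap. It was -0.25 and -0.34 for the Vil-CREPTKO replicates, below -0.13 and 0.13 for the WT ones. Of the 10 immune genes, 3 had a log2 fold change above 0 and 7 below. Of the 10 dissociation and stress genes, 2 were above 0 and 8 below, while 49.1% of all genes tested were above 0. The part of these differences in the mitochondrial share was not tested.

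Nuclear genes that serve the mitochondrial genome were examined as lists. Of 24 genes for mitochondrial DNA transcription and replication, 0 rose and 1 fell, against 0.423% and 2.29% of all genes, with a median log2 fold change of 0.02. The RNA polymerase Polrmt (log2 fold change -0.08, adjusted p = 0.838), the packaging and initiation factor Tfam (0.06, adjusted p = 0.889) and the elongation factor Tefm (-0.02, adjusted p = 0.984) did not pass. Neither did Lrpprc, which stabilises mitochondrial mRNAs (0.10, adjusted p = 0.823), nor the coactivator Ppargc1a (0.16, adjusted p = 0.745), and the Lrpprc partner Slirp had too few counts to test, 0 to 5 per library. The gene that fell was Lig3, the DNA ligase of mitochondria that also acts in the nucleus, from 27.9 and 30.8 CPM to 13.7 and 14.5 CPM (log2 fold change -1.06, adjusted p = 0.00835).

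Of 40 tested genes for mitochondrial RNA processing, modification and decay, 1 rose and 3 fell, against 0.423% and 2.29% of all genes, with a median of 0.03. At an unadjusted p under 0.05 in edgeR, 4 were higher and 6 lower, against 4.49% and 9.76% of all genes. DESeq2 gave 1 higher and 3 lower, against 1.04% and 3.74%. Trub2, a pseudouridine synthase of mitochondrial RNA, fell from 17.3 and 20.3 CPM to 6.44 and 6.15 CPM (log2 fold change -1.58, adjusted p = 0.00434). It overlaps Coq4 on the opposite strand over 1010 bases, and Coq4 counts were 904 and 870 in WT libraries and 308 and 287 in Vil-CREPTKO, so without a stated strand setting the reads of the overlap cannot be told apart. Gtpbp3, which modifies tRNA wobble uridines, fell (log2 fold change -0.93, adjusted p = 0.0207), as did Fastk (-0.54, adjusted p = 0.0488), whose short mitochondrial isoform is needed for mt-Nd6 mRNA. The limit given for Trub2 also applies to Fastk, which overlaps Slc4a2 on the opposite strand over 2511 bases. Slc4a2 counts were 6188 and 6764 in WT libraries and 4762 and 5641 in Vil-CREPTKO. The Fastk call was lost with each library left out in turn (adjusted p = 0.0546 to 0.213), with the replicate block (0.0656), with RLE scaling (0.0615) and with upper-quartile scaling (0.0749), while its log2 fold change stayed between -0.59 and -0.48. Mrm1, a methyltransferase of the large rRNA, rose from 20.3 and 15.7 CPM to 33.3 and 29.7 CPM (log2 fold change 0.81, adjusted p = 0.0420). Its call was lost with upper-quartile scaling (adjusted p = 0.0566), with library totals (0.0742), when WT replicate 2 was dropped (0.145) and when Vil-CREPTKO replicate 1 was dropped (0.0962).

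Mitochondrial ribosomal proteins numbered 77 among the genes tested, of which 0 rose and 3 fell, against 0.423% and 2.29% of all genes, at a median of 0.04. Mrpl17, a protein of the large subunit, went from 36.8 and 41.6 CPM in WT crypts to 14.3 and 13.4 CPM in Vil-CREPTKO crypts (log2 fold change -1.50, adjusted p = 0.00229). Mrps2 of the small subunit (-0.97, adjusted p = 0.00812) and Mrpl41 (-0.75, adjusted p = 0.0260) were also lower. The Mrpl41 call was lost when WT replicate 2 (adjusted p = 0.0920) or Vil-CREPTKO replicate 1 (0.0590) was dropped. At an unadjusted p under 0.05 in edgeR, 4 of these 77 were higher and 9 lower, against 4.49% and 9.76% of all genes, and DESeq2 gave 0 higher and 6 lower, against 1.04% and 3.74%. The 19 mitochondrial aminoacyl-tRNA synthetases had 0 genes past the adjusted threshold in edgeR, with 2 higher and 3 lower unadjusted and 1 in each direction by DESeq2, and the 11 regulators of mitochondrial biogenesis had 0 by all 3 counts. Across 248 tested genes of these and the respiratory lists together, 1 rose and 7 fell, close to the 0.423% and 2.29% of all genes tested.

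Nuclear-encoded subunits of the complexes that also hold mitochondrial subunits were slightly above 0 as a group. For 73 such genes of complexes I, III, IV and V, the median log2 fold change was 0.20 and 62 were above 0, against 49.1% of all genes. However, 0 passed the adjusted threshold in edgeR and 0 by DESeq2. At an unadjusted p under 0.05 in edgeR, 9 were higher and 3 lower, against 4.49% and 9.76% of all genes. Complex IV subunits had the highest median, 0.30, and all 12 of them did not overlap, with Vil-CREPTKO higher, as in 21.0% of all genes. Complex I followed at 0.19 in 35 genes, complex V at 0.17 in 17 and complex III at 0.14 in 9. Complex II, which has no mitochondrial gene, had a median of 0.16 in 4 genes. Against the WT mean, the 73 genes had a median of 0.26 in Vil-CREPTKO replicate 1 and 0.12 in replicate 2, so the order of the 2 libraries was that of the mitochondrial genes at a smaller size.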

How the data were processed

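Intestinal crypt RNA-seq counts of 2 WT and 2 Vil-CREPTKO libraries were used, grouped and numbered by sample title. The deposited values were whole-number counts per gene, 1 column per library. According to the methods and the submitters' processing notes (CASAVA 1.8, Bowtie2, RSEM, GRCm38.p6), the authors mapped reads to reference transcripts with Bowtie2, estimated expression with RSEM and tested with DESeq2. Versions of Bowtie2 and RSEM, strand setting, annotation and treatment of multiply matching reads were not given in the sources used here. Methods name a BGISEQ instrument and the public record an Illumina one.

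Of 53845 gene IDs, 53360 (99.1%) matched GENCODE M21. Transcripts were compared with blastn 2.17.0. In R 4.3.3, edgeR 4.0.16 (filterByExpr, TMM, quasi-likelihood, Benjamini-Hochberg over 17504 genes) was fitted on the whole table with genotype as the only term. The common biological coefficient of variation was 0.188, so for well-counted genes the spread between libraries set the precision. TMM factors were 1.07 and 0.997 for WT, then 0.92 and 1.02 for Vil-CREPTKO. The fitting functions were tested on simulated data.

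Every mitochondrial gene is accounted for. Nuclear list genes are named at an adjusted p under 0.05 (at most 5 a list), plus 6 set regulators. Of the nuclear copies, the 5 with the highest counts are named, with Gm28438, Gm13340 and Gm11410 added after their values were seen. Members and lists were chosen with earlier results of these data known. Alternatives were DESeq2 1.42.0, RLE, upper-quartile and total-count scaling, scaling without mitochondrial genes, no filter or at least 10 counts in every library, a replicate block, each library left out, other numerators and denominators of the shares, and, added after seeing the data, counts of near-identical copies summed with their members.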

Additional observations from a re-analysis of the deposited data

How the results depend on the processing

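Of the mitochondrial genes, 2 were higher under every alternative that scaled or blocked the libraries otherwise, except that 3 were with DESeq2 and with library totals, 4 with no filter on low counts and 1 with near-identical copies added. With copies added, 0 were called at a log2 fold change over 1, in place of 1. Leaving out each library gave 2 to 3 higher and 0 to 3 called. The call of mt-Atp6 was lost when WT replicate 1 (0.95) or Vil-CREPTKO replicate 1 (0.92) was dropped, where its log2 fold change no longer exceeded 1.

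The labels do not say what same-numbered libraries share, and over all genes these did not deviate together (correlation 0.0277, 2 pairs), so the block was kept as an alternative. With the replicate block, 2 members were higher (mt-Nd3 adjusted p = 0.00713, mt-Atp6 adjusted p = 0.0244), 1 was called, the median over members was 0.49, and 106 genes rose and 452 fell over the whole table.

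Left out in turn, libraries gave medians of 0.14 to 0.77 for all 16 members, 0.19 to 0.78 for mRNAs, -0.17 to 0.60 for rRNAs and 0.11 to 0.27 for nuclear subunits of complexes I, III, IV and V, the lowest each time without Vil-CREPTKO replicate 1. With library totals the last was 0.10, while the median of all genes tested was -0.10 there and -0.01 in the main fit. Nuclear list genes past the threshold numbered 8, against 13 with DESeq2, 17 with no filter and 5 to 9 with a library left out, the 5 found when WT replicate 2 or Vil-CREPTKO replicate 1 was dropped.

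Directions turned in some alternatives, and the cause was not tested. With a library left out, log2 fold changes ran from -0.11 to 0.71 for mt-Rnr1, -0.24 to 0.48 for mt-Rnr2, -0.47 to 0.51 for mt-Co3, -0.01 to 0.65 for mt-Nd4 and -0.24 to 1.23 for mt-Tp. Those of Tfam ran from -0.07 to 0.18, Tefm from -0.13 to 0.09, Lrpprc from -0.02 to 0.21 and Ppargc1a from -0.12 to 0.39. With library totals mt-Co3 was -0.01 and Tfam -0.03. Tefm was 0.00 with DESeq2 and RLE scaling and 0.01 with upper-quartile scaling.

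Over the whole table, 74 genes rose and 400 fell, against 182 and 654 with DESeq2 and 325 and 908 with no filter, and 142 rose when WT replicate 1 was dropped and 234 when Vil-CREPTKO replicate 2 was. Depth limited the low end, where Slirp (0 to 5 counts) and 21 tRNA genes at 0 counts could not be tested.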
